A study of Homo sapiens with 4 samples.

Results

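The cytosolic ribosomal proteins are the protein parts of the ribosome that translates nuclear mRNAs. Their genes were taken by symbol from the deposited expression table: RPL or RPS followed by a number and an optional A or X, together with RPLP0, RPLP1, RPLP2 and RPSA, provided that the 4 libraries averaged 5 FPKM or more. FPKM, fragments per kilobase of transcript and number of mapped fragments, is a level corrected for transcript length. Of the 26255 gene symbols listed, 77 had such a name, and 76 passed the mean, 46 of the large subunit and 30 of the small subunit. None of the 76 lay near the limit, since the lowest means among the 76 were 149.6 FPKM for RPL27A, 229 for RPS23, 247 for RPL21, 309 for RPL22 and 363 for RPL13.

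As background, the small subunit reads the mRNA and the large subunit joins the amino acids. The proteins of either subunit are mostly needed in about equal copy number. Most mRNAs of ribosomal proteins begin with a C followed by a run of pyrimidines, the terminal oligopyrimidine or TOP tract. Through this tract the kinase mTOR, with the RNA-binding protein LARP1, controls how far these mRNAs are translated and stored. The assay here measured mRNA levels and not translation.

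The cells were TOV21G, an established human line from an ovarian clear cell carcinoma. Of the 4 cultures, 1 received no drug (its label gives no time), 1 received As2O3 at 1 µM for 48 h, 1 GSK458 at 0.1 µM for 48 h and 1 both drugs at these doses for 48 h. As2O3 is arsenic trioxide, and GSK458 inhibits PI3K and mTOR together. The series title speaks of synergy, and the libraries allow each drug to be read both by itself and on top of the other.

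Since each group had 1 library, nothing below carries a replicate error or a test, and all values describe these libraries. Differences are on the log2(FPKM + 1) scale. The 9155 genes that average 5 FPKM or more serve as the background. A threshold of 0.32 on the log2 scale, 25% higher or 20% lower, is used for counts. FPKM sums ran from 543975 to 588892. Steps between low values put the depth of the libraries at 85.8% to 109% of the control's, if no other scaling of the libraries entered the values. Of 10 markers of clear cell carcinoma 8 were at 1 FPKM or more in all libraries, NAPSA (0.66 to 1.06 FPKM) and EPCAM (0.61 to 1.71 FPKM) being the exceptions. Of 6 fibroblast markers COL3A1 and LUM were listed at 0, and the 6 summed to 2.32 to 5.98 FPKM, with COL1A1 at 2.65, 4.24, 1.84 and 1.58 FPKM (control, As2O3, GSK458 and both drugs). Of 5 immune markers PTPRC and CD3E were listed at 0, and the 5 summed to 1.01 to 4.29 FPKM, most of it CD68 at 0.78, 4.15, 1.12 and 2.63 FPKM, and both sums were highest with As2O3 alone. The 4 endothelial markers were below 0.1 FPKM, and the part of these markers in the results was not tested. FPKM is a relative scale, so more ribosomal protein mRNA in the cells and less of all other mRNA cannot be told apart, nor can a change of RNA per cell be told from a change in the mix of cells.

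The first bases of the transcripts carry the TOP tract, so windows of 30 bases around annotated starts (10 before, 20 from the start on) are shown for the members that the results below turn on. They were read from RefSeq on GRCh38.p14, which is not the build of the deposited values, and 62 of the 76 genes had an entry. Capitals mark the run of pyrimidines, which opens at the start base where the gene has the tract and is otherwise the longest run in the window. The first 4 are genes with large GSK458 differences, the next 3 genes with small ones, then the most abundant member, RPL11 of the 5S particle, RPS6 and RPLP0. The last is no ribosomal protein gene but that of the elongation factor EEF1A1, another gene with the tract.
RPS27: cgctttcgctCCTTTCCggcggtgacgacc
RPL39: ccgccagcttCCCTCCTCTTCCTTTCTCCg
RPL14: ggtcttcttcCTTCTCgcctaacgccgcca
RPL9: taatgacgacagacgTTCTTTCTTTgctgc
RPL35: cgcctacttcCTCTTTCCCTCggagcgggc
RPL3: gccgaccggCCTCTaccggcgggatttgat
RPS26: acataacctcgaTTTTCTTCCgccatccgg
RPL41: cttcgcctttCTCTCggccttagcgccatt
RPL11: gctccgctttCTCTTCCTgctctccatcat
RPS6: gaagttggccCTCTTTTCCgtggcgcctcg
RPLP0: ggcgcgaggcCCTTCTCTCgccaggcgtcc
EEF1A1: cgtgaacgttCTTTTTCgcaacgggtttgc

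The windows lie at chr1:153990752-153990781 on the plus strand for RPS27, chrX:119791611-119791640 on the minus strand for RPL39, chr3:40457329-40457358 on the plus strand for RPL14, chr4:39458903-39458932 on the minus strand for RPL9, chr9:124861938-124861967 on the minus strand for RPL35, chr22:39319604-39319633 on the minus strand for RPL3. The others lie at chr12:56041908-56041937 on the plus strand for RPS26, chr12:56116623-56116652 on the plus strand for RPL41, chr1:23691796-23691825 on the plus strand for RPL11, chr9:19380217-19380246 on the minus strand for RPS6, chr12:120201092-120201121 on the minus strand for RPLP0 and chr6:73521013-73521042 on the minus strand for EEF1A1. Each window joins bases upstream of the gene to the opening of its first exon. RPS27 opens with a C and a run of 7 pyrimidines in all and RPL39 with 19, the longest run among the 62 members with an entry. RPL3, RPS26 and RPL9 had no annotated start of this form, and in RPS26 and RPL9 the longest run begins a few bases into the transcript.

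A start with a C followed by at least 4 pyrimidines was found for 46 of the 62 members (74.2%), 28 of 38 in the large subunit (73.7%) and 18 of 24 in the small subunit. The same start was found for 7.59% of 7051 other genes of the background, for 5.14% of the 27305 genes of the promoter table and for 8.82% of 68 mitochondrial ribosomal protein genes. The short motifs CCGGAAG and GCCATNTT were searched on both strands of 300 bases, 250 before the start and 50 from it on. TATAAA was searched in the 250 bases before the start, on the strand of the gene. CCGGAAG, a form of the ETS site, was found for 35.5% of the members, 24.2% of the other background genes and 12.2% of all genes. GCCATNTT, the core of the YY1 site, was found for 16.1%, 14.3% and 7.97%, and TATAAA for 3.23%, 4.33% and 8.38%. A match is a description of these letters and not a sign of binding.

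Ribosomal protein mRNAs took up 22.3% of the FPKM sum without drug, 21.9% with As2O3 alone, 30.0% with GSK458 alone and 26.9% with the combination. The large subunit genes held 13.2%, 13.0%, 17.7% and 15.7%, and the small subunit genes 9.18%, 8.91%, 12.3% and 11.1%. Both libraries with GSK458 had the larger shares, and the ratio of large to small stayed nearly level at 1.43, 1.46, 1.44 and 1.41. The median member was at 1558 FPKM without drug, 1650.5 with As2O3 alone, 2263 with GSK458 alone and 1985 with the combination, whereas the median of all 9155 genes was 17.0, 17.5, 16.4 and 16.6 FPKM. Of the 100 most abundant genes 61 were members in each library without GSK458, 66 under GSK458 alone and 63 under the combination.

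Levels differed widely among proteins most of which the ribosome holds in like numbers. RPL41, the smallest ribosomal protein, was the most abundant member at 7978 FPKM without drug, 7357 with As2O3 alone, 10341 with GSK458 alone and 8586 with the combination. RPS27, a zinc-finger protein of the small subunit platform, was at 3398, 3617, 6370.2 and 5537 FPKM in that order. Next in mean level came RPS18 of the small subunit head (3613, 3429.9, 5277 and 4226 FPKM), RPS2 of the mRNA entry side (3590.3, 3619, 4112 and 3669 FPKM) and RPLP1 of the acidic stalk (2978, 3129, 4623 and 4105 FPKM). RPL27A, a large subunit protein, was the lowest in 3 libraries at 133 FPKM without drug, 127 with As2O3 alone, 186 with GSK458 alone and 152 with the combination, and RPL21 was the lowest with GSK458. The highest member was 59.9, 58.1, 57.1 and 56.4 times the lowest in the 4 libraries. The ranking was much the same in all libraries. Across the 76 genes, log2 levels in the control followed those with As2O3 (Pearson's r 0.997, Spearman's rho 0.99), GSK458 (0.983, 0.94) and both drugs (0.981, 0.94), where genes are not independent replicates. Reads of these genes can also match their many processed pseudogenes, and their treatment is not stated, so the levels of single members are uncertain.

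**Figure D1:**
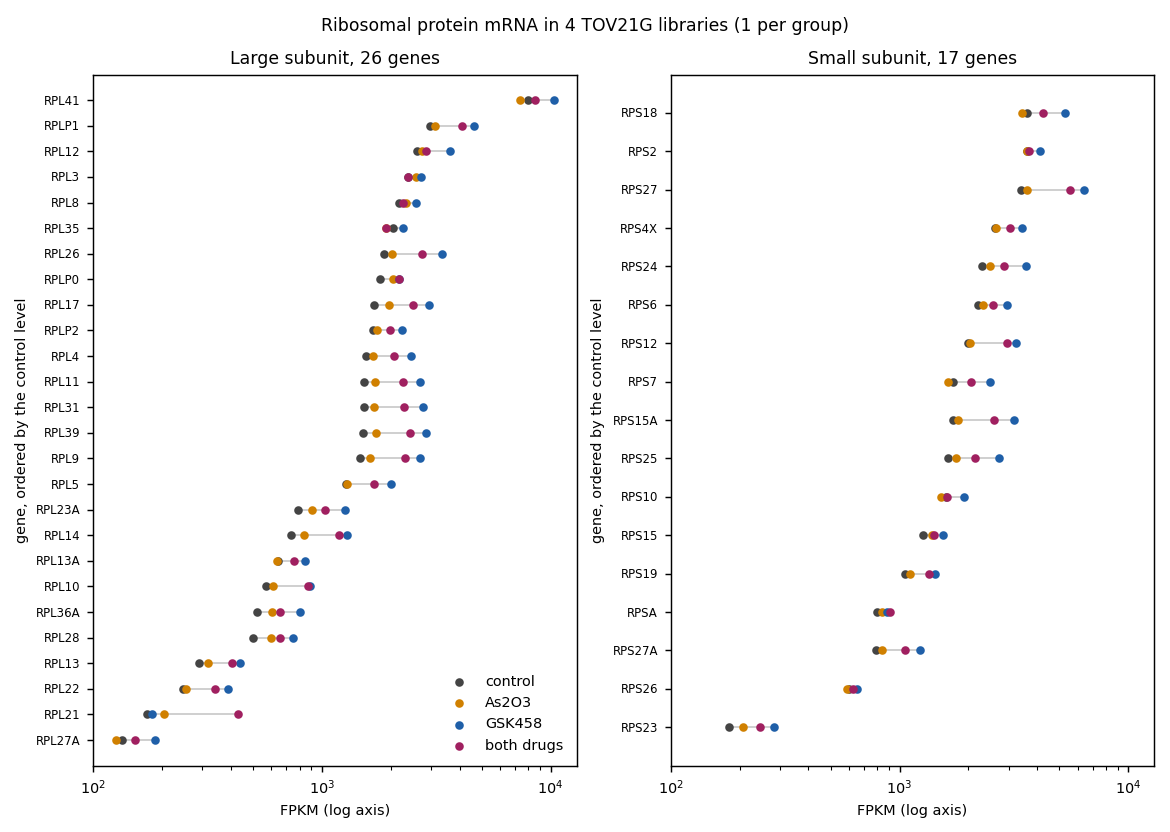
FPKM on a log axis of 43 of the 76 members, all named in the text, 26 of the large and 17 of the small subunit, ordered by the control level, with 1 point per library. In the values as deposited the GSK458 points lie right of the control points for all 43 genes, except RPL21 and RPS26 after rescaling to equal sums, and RPL41 is the highest and RPL27A the lowest gene of the control.

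With GSK458 the ribosomal protein genes were higher as a block. All 76 were above the control (74 after rescaling to equal sums), where 46.8% of all genes were, and 66 were at least 25% higher, where 19.8% of all genes were. At least 1.5-fold higher were 33 genes, beside 8.05% of all genes, and none reached 2-fold, beside 2.26%. The median difference was 0.55, which is 1.46-fold, with 0.57 for the large and 0.54 for the small subunit, and -0.03 for all genes. The spread was small, with an SD over genes of 0.20 among the members and 0.58 among all genes, and the extremes were 0.074 for RPL21 and 0.91 for RPS27. By subunit, 41 of 46 large and 25 of 30 small subunit genes were at least 25% higher. The 667 other genes that average 100 FPKM or more had a median of -0.09.

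In the second pair, both drugs against As2O3, which shares no library with the first, these genes were again mostly higher but by less. Of the 76 genes 73 were higher, beside 44.6% of all genes, 28 were at least 25% higher, beside 17.9%, and 2 were at least 1.5-fold higher, beside 7.29%. The median was 0.26 for either subunit and -0.05 for all genes. Upper-quartile scaling gave 75 members and 4735 of all genes higher in this pair, in place of 73 and 4080. Against the control, which the GSK458 comparison also uses, both drugs gave 74 higher genes (46.8% of all genes), 41 at least 25% higher (20.5%) and 9 at least 1.5-fold higher (8.83%), with a median of 0.33. Rescaling each library to a sum of 1000000 moved the median of all genes for GSK458 against the control from -0.03 to -0.14, with 3316 of the 9155 higher and 5835 lower in place of 4289 and 4862. The members then had a median of 0.43 with 74 genes higher and 53 at least 25% higher, and the 2 members then below the control were RPL21 and RPS26.

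**Figure D2:**
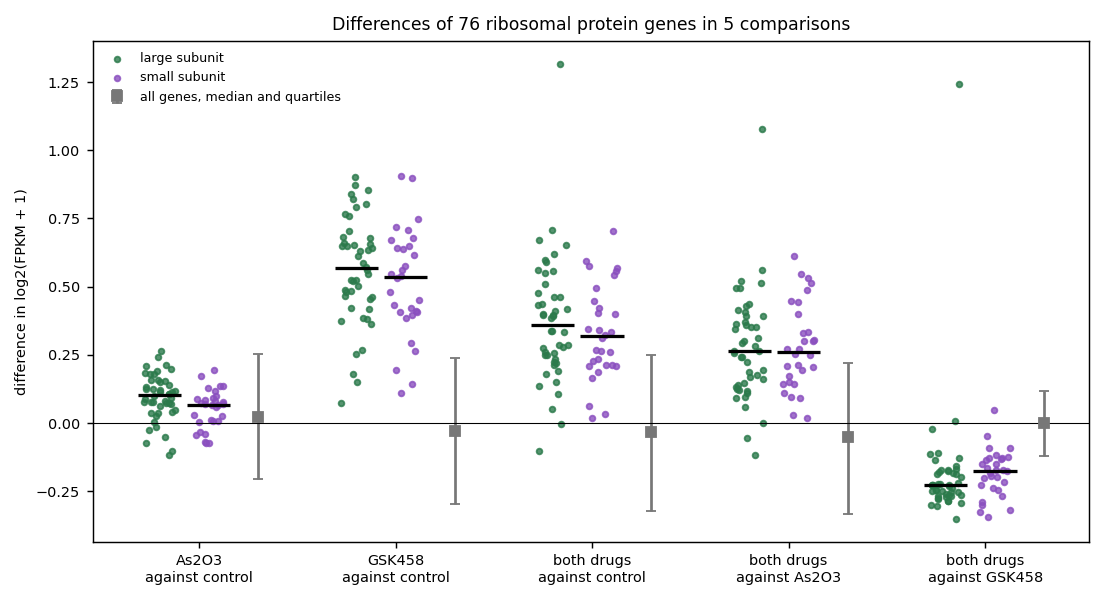
Differences in log2(FPKM + 1) of the large and small subunit genes in 5 comparisons, 1 point per gene, with black bars at the medians and grey squares with bars for the median and quartiles of all 9155 genes. Members lie above the grey medians with GSK458 (0.55 against -0.03) and below them for both drugs against GSK458 (-0.22 against 0.00), and the single high point in the last 3 columns is RPL21.

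In the small subunit head, the part that swivels during translocation, all 13 measured genes were higher with GSK458. At least 25% higher were 11, beside 66 of all 76 members and 19.8% of all genes. The median was 0.48 without and 0.27 with As2O3. RPS25, a head protein used in initiation on viral mRNAs, was at 1622 FPKM without drug, 1773 with As2O3 alone, 2723 with GSK458 alone and 2142 with the combination, with differences of 0.75 and 0.27. RPS12 was at 1983, 2024, 3235 and 2956 FPKM in that order, with differences of 0.71 and 0.55. RPS19, the gene most often mutated in Diamond-Blackfan anaemia, an inherited failure of red cell production, was at 1061, 1115, 1432 and 1346 FPKM. Its differences were 0.43 and 0.27. The smallest differences of the head were those of RPS10, at 0.26 and 0.091, and RPS15, at 0.29 and 0.028. RPS27A, made as a fusion with ubiquitin, was at 789, 839, 1228 and 1058 FPKM, so the libraries with GSK458 were the higher ones here too.

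The body and platform of the small subunit bind the mRNA and most initiation factors. All 17 of their genes were higher with GSK458 (16 after rescaling to equal sums). Of the 17, 14 were at least 25% higher, beside 66 of all 76 members and 19.8% of all genes. The median was 0.54 without and 0.21 with As2O3. RPS27 had the largest mean of both pairs of all 76 genes, 0.76. It was lowest in the control and highest with GSK458 alone, and its differences were 0.91 and 0.61. RPS15A, a protein of the body, was at 1707 FPKM without drug, 1808 with As2O3 alone, 3179.5 with GSK458 alone and 2579 with the combination, with differences of 0.90 and 0.51. RPS6, the protein that S6 kinase phosphorylates downstream of mTOR, was at 2213, 2315, 2940.1 and 2567 FPKM in that order, a smaller difference than the median of the body in either pair (0.41 and 0.15). RPS4X, the X-linked form of its protein, was at 2621, 2630.1, 3445 and 3032 FPKM, with 0.39 and 0.21.

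Members at the lower end of the body were RPSA, RPS26 and RPS2. RPSA, also known as the laminin receptor, was at 796 FPKM without drug, 839.5 with As2O3 alone, 878 with GSK458 alone and 907 with the combination, and its differences were 0.14 without and 0.11 with As2O3. RPS26, which sits where the mRNA leaves the subunit, was at 601, 588, 649 and 628 FPKM in that order, with 0.11 and 0.095. RPS2 had differences of 0.20 and 0.02, although it was among the 5 most abundant members by mean level. The 4 values of RPS26 lay close together, and its highest library, GSK458, was at 649 against 601 FPKM.

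In the large subunit, the acidic stalk recruits the elongation factors. Its 4 genes were higher with GSK458 (median 0.46 without and 0.14 with As2O3). RPLP0, the base of the stalk, was at 1800.1 FPKM without drug, 2039 with As2O3 alone, 2168 with GSK458 alone and 2178 with the combination, so its value in all 3 treated cultures was above the control and the libraries with GSK458 were nearly equal. RPLP1 was at 2978, 3129, 4623 and 4105 FPKM and RPLP2 at 1674, 1747, 2243 and 1992 FPKM in that order. The differences were 0.27 and 0.096 for RPLP0, 0.63 and 0.39 for RPLP1, 0.42 and 0.19 for RPLP2 and 0.49 and 0.059 for RPL12. RPL5 and RPL11 bind the 5S rRNA, and when free they inhibit MDM2, the ligase that degrades p53. RPL5 was at 1281 FPKM without drug, 1285 with As2O3 alone, 2008 with GSK458 alone and 1685 with the combination, and RPL11 at 1535, 1704, 2679.7 and 2260.2 FPKM. Their differences, 0.65 and 0.39 for RPL5 and 0.80 and 0.41 for RPL11, were above the median of all members in both pairs.

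Of the 8 proteins that line the tunnel of the nascent chain or ring its exit, 7 were at least 25% higher with GSK458. This was so for 66 of all 76 members and 19.8% of all genes. The median of the 8 was 0.73 without and 0.33 with As2O3. RPL39, a short protein of the tunnel wall, was at 1518 FPKM without drug, 1718 with As2O3 alone, 2842 with GSK458 alone and 2419.8 with the combination, with differences of 0.90 and 0.49. RPL26 of the exit ring, which also binds the p53 mRNA, was at 1868, 2029, 3347 and 2733 FPKM, with 0.84 and 0.43. RPL17 and RPL31, neighbours at the exit, had 0.79 and 0.85 without As2O3 and 0.35 and 0.44 with it. RPL4, whose loop reaches into the tunnel, had 0.65 and 0.30. The exception was RPL35, also at the exit, which was at 2041 FPKM without drug, 1903 with As2O3 alone, 2264 with GSK458 alone and 1902 with the combination. Its differences were 0.15 and -0.00079, and both libraries with As2O3 were lower than the control.

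Among the other large subunit proteins, RPL9 at the base of the stalk was at 1463 FPKM without drug, 1630.4 with As2O3 alone, 2677 with GSK458 alone and 2299 with the combination (0.87 and 0.50), and RPL14 at 730.1, 833, 1292 and 1194 FPKM (0.82 and 0.52). These were, after RPS27, RPS15A and RPL39, the next largest differences by the mean of both pairs, 0.68 and 0.67. RPL22, which has a paralog that can replace it, was at 247, 256, 389 and 342 FPKM, with 0.65 and 0.41. RPL3, which lies beside the catalytic centre, was at 2391 FPKM without drug, 2588 with As2O3 alone, 2710.3 with GSK458 alone and 2387 with the combination, and RPL8, another core protein, at 2177, 2345, 2592 and 2258 FPKM. RPL3 had the smallest mean of both pairs, 0.032, from 0.18 without and -0.12 with As2O3, and RPL8 had 0.25 and -0.054. For RPL3, RPL8 and RPL35 the library with both drugs was below the As2O3 library, and these were the 3 members not higher in the second pair (2 after rescaling to equal sums, 1 under the other scalings).

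A list of Diamond-Blackfan anaemia genes held 8 of the members, from both subunits, and leaves out other members also linked to the disease. All 8 were higher with GSK458 (7 after rescaling to equal sums), with a median of 0.59 without and 0.30 with As2O3. Of them 6 were at least 25% higher, beside 66 of all 76 members and 19.8% of all genes. The medians of the 8 lay close to those of all members, 0.55 and 0.26.

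Members with a large difference in 1 pair tended to have a large one in the other. Across the 76 genes, the differences without and with As2O3 had a Pearson's r of 0.54 and a Spearman's rho of 0.75. Without RPL21 they were 0.83 and 0.82. Among the other 9079 genes the values were 0.65 and 0.62. These are descriptions across genes that share the 4 libraries and, in part, pseudogene sequence, and genes are not independent replicates.

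**Figure D3:**
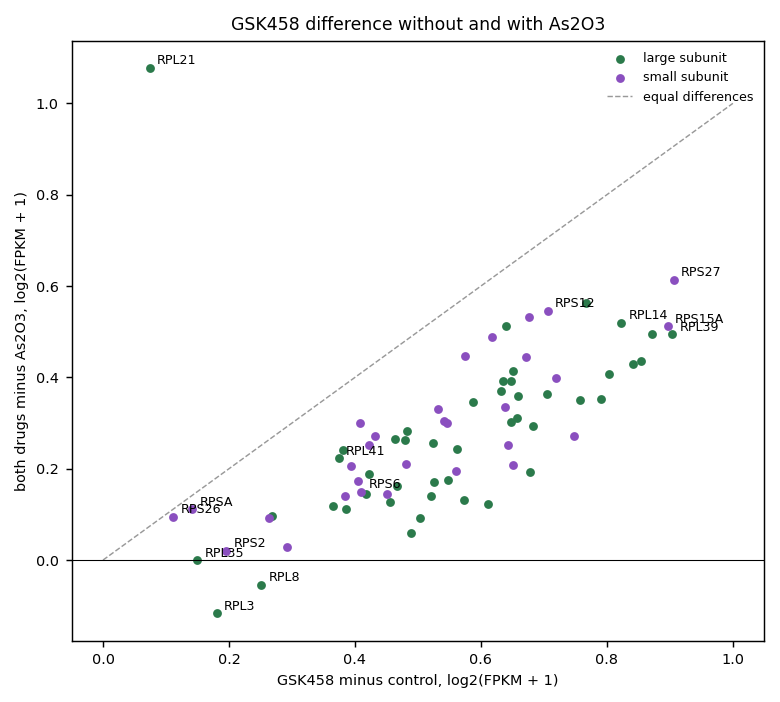
Each point is 1 of the 76 genes, with the difference of GSK458 against the control on the horizontal axis and of both drugs against As2O3 on the vertical axis, both in log2(FPKM + 1). The cloud lies below the dashed line of equal differences, with RPL21 far above it. RPS27 (0.91 and 0.61) is at the upper right and RPL3 (0.18 and -0.12) at the bottom.

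As2O3 by itself gave small differences. Without GSK458, 64 of 76 members were higher than the control, beside 52.6% of all genes, and none was 25% higher or 20% lower, where 19.2% of all genes were that much higher and 16.0% lower. The median was 0.08 (all genes 0.02) and became -0.0073 with 35 genes higher and 41 lower when libraries were rescaled to equal sums, and 53 were higher and 23 lower under upper-quartile scaling. The extremes were 0.27 for RPL28 and -0.12 for RPL41. With GSK458 present, 73 of 76 members were lower with As2O3 than without it, beside 49.8% of all genes (71 members and 3500 of the 9155 genes after rescaling to equal sums), with a median of -0.22 (all genes 0.00), -0.23 in the large and -0.17 in the small subunit. At least 20% lower were RPL12 (-0.35), RPS25 (-0.35) and RPS24 (-0.33), or 3 of 76, beside 5.39% of all genes (0 members after rescaling to equal sums and 4 under upper-quartile scaling). RPL12, which binds at the root of the stalk, was at 2595 FPKM without drug, 2740.0 with As2O3 alone, 3641 with GSK458 alone and 2854 with the combination, with differences of 0.079 without and -0.35 with GSK458. RPL12, RPS25 and RPS24 were picked out here after their values were seen.

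By the mean of both As2O3 pairs, the lowest members were RPS18 (-0.20), RPL41 (-0.19), RPL27A (-0.18), RPL35 (-0.18) and RPS7 (-0.17). RPS7, a body protein that binds MDM2 when free, was at 1713 FPKM without drug, 1633 with As2O3 alone, 2476 with GSK458 alone and 2055 with the combination, lower with As2O3 in both pairs. The highest were RPL21 (0.74), RPLP0 (0.093), RPSA (0.062), RPL28 (0.045) and RPL10 (0.042). RPL28 was at 500.2, 602, 745 and 659 FPKM and RPL10, which is added last to the large subunit in the cytoplasm, at 569, 612, 887 and 874 FPKM in that order. RPLP0, RPSA and RPL21 were the 3 members higher with both drugs than with GSK458 (5 members after rescaling to equal sums, 2 under upper-quartile scaling), RPL21 being the 1 that was at least 25% higher, beside 5.59% of all genes. The As2O3 differences without and with GSK458 had an r of 0.25 and a rho of 0.083 across the 76 genes, and 0.093 and 0.047 without RPL21.

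Additivity was measured as both drugs minus As2O3 minus GSK458 plus the control, all on the log2(FPKM + 1) scale. For 75 of 76 members this departure was below 0, where 51.9% of all genes were, and for 25 it was at least 20% below, where 19.1% were. The median was -0.27, with -0.30 in the large and -0.23 in the small subunit, and -0.02 for all genes. The furthest below were RPL36A, at 523 FPKM without drug, 606 with As2O3 alone, 799 with GSK458 alone and 659 with the combination and a departure of -0.49, RPL23A (-0.48) and RPS25 (-0.47), named after their values were seen. Rescaling to equal sums changed the median to -0.13 while moving that of all genes to 0.12, and 68 of 76 members were below 0. Only 3 members were then at least 20% below, where 1096 of the 9155 genes were, and 23 and 21 members were under median-of-ratios and upper-quartile scaling.

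RPL21, an RNA-binding protein of the large subunit, did not follow the other members. It was at 172 FPKM without drug, 204 with As2O3 alone, 181 with GSK458 alone and 431 with the combination, so the library with both drugs was more than 2-fold above each of the others and GSK458 alone was close to the control. The pseudogene symbol RPL21P28 was listed at 1498, 1540.2, 2359 and 1735 FPKM in that order, far above the gene itself, and was lower with both drugs than with GSK458. Added together, RPL21 and RPL21P28 were at 1670.2, 1744, 2540.2 and 2165 FPKM, with differences of 0.60 for GSK458 against the control, 0.31 for both drugs against As2O3 and -0.23 for both drugs against GSK458. These differences lay near the medians of the members, 0.55, 0.26 and -0.22. RPL13A, which also regulates inflammatory mRNAs, was likewise split, at 646, 639, 842 and 755 FPKM, with RPL13AP5 at 3307, 3351, 4692 and 3979.8 FPKM. The sum of RPL13A and RPL13AP5 was 0.49 higher with GSK458. Of 27 pseudogene symbols of this family listed, 4 averaged 5 FPKM or more.

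Base composition went with the size of the GSK458 difference. The GC content of the coding sequence, taken from GENCODE 29 for all 76 genes, ran from 42.5% to 63.0%. In the 19 genes of lowest GC (42.5% to 46.8%) the median GSK458 difference was 0.68, in the next 19 (46.9% to 51.6%) 0.65, then 0.48 (51.9% to 54.9%), and in the 19 of highest GC (55.0% to 63.0%) it was 0.42. In the pair with As2O3 the medians were 0.39, 0.30, 0.15 and 0.19. Other genes of the same GC ranges, 850 to 2428 in each, had medians of -0.04, -0.06, -0.04 and -0.07 with GSK458. Across the 76 members GC content and the difference had an r of -0.53 and a rho of -0.59 without As2O3, and -0.51 and -0.53 with it, whereas among 8561 other genes the values were 0.06 and 0.03, and 0.07 and 0.06. For As2O3 against the control the members had an r of -0.13 and a rho of -0.13. For both drugs against GSK458 the values were 0.0058 and 0.34, and without RPL21 they were 0.38 and 0.39.

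RPL39, the member of lowest GC content (42.5%), had 0.90, and RPS15, that of highest (63.0%), 0.29. Near the low end RPL9 at 43.6% had 0.87 and RPL7 at 43.4% had 0.66. Near the high end RPS2 at 61.8% and RPL8 at 61.0% had 0.20 and 0.25, whereas RPL13 at 62.2% had 0.59. RPS27 at 50% lay above the trend and RPS26 at 53.6% and RPL21 at 43.5% below it. Coding length, with a median of 462 bases in the members and 1362 in other genes, had an r of -0.35 with the GSK458 difference and the mean level one of 0.08. The genes of each GC range share the 4 libraries, and whether GC content has a part in the difference was not tested.

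**Figure D4:**
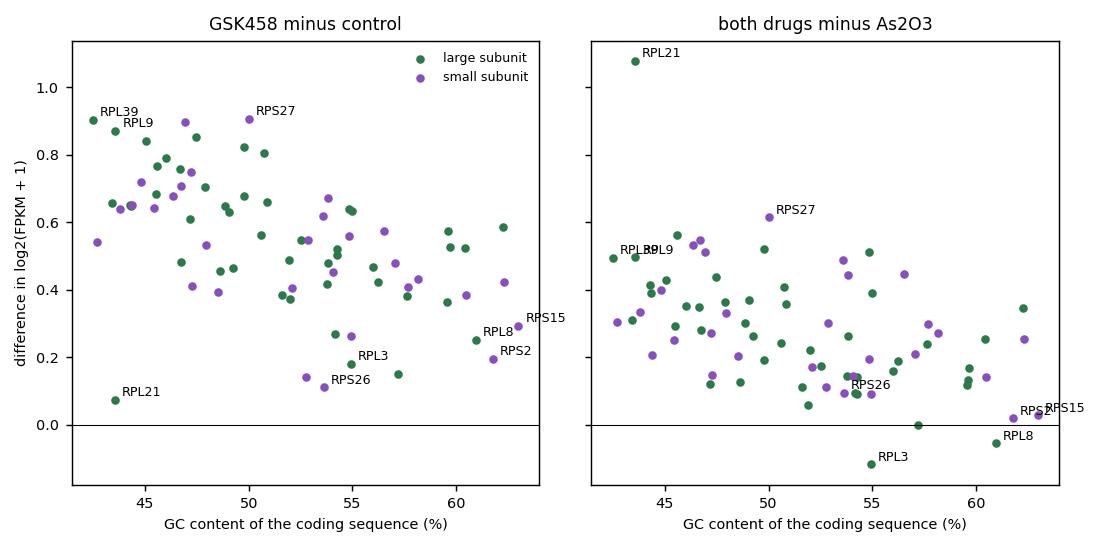
GSK458 difference of each of the 76 genes, in log2(FPKM + 1), against the GC content of its coding sequence, without As2O3 on the left and with As2O3 on the right. Points fall from the upper left, with RPL39 at 42.5% GC and 0.90, to the lower right, with RPL8 at 61.0% GC and 0.25, and RPL21 lies apart in both panels.

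Members with and without the annotated TOP start had similar medians. The 46 members with an annotated start of C and at least 4 pyrimidines had a median GSK458 difference of 0.56, and the 16 without one 0.49. In the pair with As2O3 the medians were 0.27 and 0.25. Among other genes the 535 with such a start had a median of 0.14 with GSK458 and the 6516 without it -0.05. In the pair with As2O3 these medians were -0.0058 and -0.07. RPL39 and RPL35, whose runs of 19 and 11 pyrimidines are shown above, were at opposite ends of the members' differences. RPL9, shown without a tract at its start, was near the top. Several of the 16 have long runs near the start. Examples are RPL4, RPL9 and RPS26, with runs of 12, 10 and 9 pyrimidines that open at bases 6, 6 and 3 of the transcript. In RPS7 a run of 11 opens 8 bases before the start. Others, such as RPL3 with 5, have shorter runs. The split rests on annotated starts and may not part TOP mRNAs from others, so the part of the tract was not tested.

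Other genes, mainly of protein synthesis, were grouped by role. FAU encodes a protein of the small subunit fused to a ubiquitin-like protein and lies outside the symbol pattern. It was higher with GSK458, at 583, 563, 759 and 713 FPKM (control, As2O3, GSK458 and both drugs). A list of 14 other genes known for TOP tracts, called TOP translation genes here, holds mostly genes of translation. All 14 were higher with GSK458 (13 after rescaling to equal sums). At least 25% higher were 12, beside 19.8% of all genes. The median was 0.74 without and 0.43 with As2O3. The largest differences were those of NAP1L1, a histone chaperone (0.96), PABPC1, the poly(A)-binding protein (0.92), and EIF4B, a cofactor of the initiation helicase (0.87). The smallest were those of EEF1G (0.11), EEF1D (0.20) and EEF1B2 (0.41), subunits of the exchange factor of elongation. EEF1A1, the elongation factor whose start is shown above, was at 5216, 5785, 8827 and 8024 FPKM.

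The widest differences were in 8 host genes of small nucleolar RNAs, whose spliced RNAs start with TOP tracts and whose introns hold guides for rRNA modification. All 8 were at least 1.5-fold higher with GSK458, beside 8.05% of all genes, and 6 at least 2-fold, beside 2.26%. The median was 1.41 without and 0.79 with As2O3. GAS5 was at 158 FPKM without drug, 248 with As2O3 alone, 726 with GSK458 alone and 553 with the combination. EPB41L4A-AS1 was at 11.7, 14.6, 58.9 and 45.4 FPKM and SNHG7 at 41.1, 62.4, 179.6 and 163 FPKM in that order. With As2O3 alone 7 of the 8 were higher (median 0.45), beside 52.6% of all genes (median 0.02). The start of C and pyrimidines was annotated for 2 of 7 host genes in the promoter table and for 7 of 8 of the TOP translation genes (87.5%).

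In the lists that follow, which were not sorted by TOP start, the direction was mixed or opposite. Beside the counts below, 46.8% of all genes were higher with GSK458 (4289 higher and 4862 lower). Of 32 other translation factors 14 were higher and 18 lower with GSK458 (median -0.07; 11 and 21 after rescaling to equal sums), among them EIF1, which finds the start codon (1.22), EIF4A2 (1.03) and EIF3M (0.87) on the higher side and EIF2B3 (-1.15), EIF5A (-0.83) and EIF2S1 (-0.62) on the lower. Of 77 mitochondrial ribosomal proteins, which serve the separate ribosome of mitochondria, 13 were higher and 64 lower, 39 of them at least 20% lower, beside 23.0% of all genes (median -0.33 without and -0.22 with As2O3). MRPS7 was at 50.1, 38.6, 27.4 and 30.6 FPKM and MRPL54 at 43.9, 34.4, 24.2 and 22.1 FPKM in that order, while MRPL10 (0.68) and MRPL45 (0.62) were higher. Of 37 proteasome subunits, another abundant complex, 3 were higher and 34 lower (median -0.46 and -0.35), PSMB3 the most at 156, 149, 73.6 and 80.4 FPKM.

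**Figure D5:**
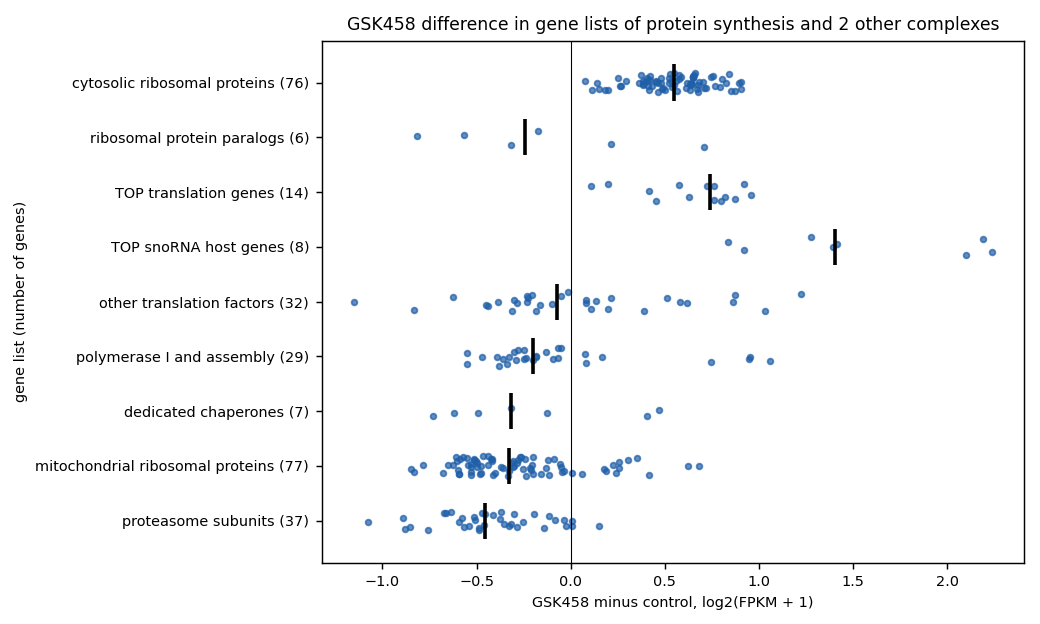
Difference of GSK458 against the control, in log2(FPKM + 1), for each gene of the lists named on the left, with black bars at the medians and the number of genes in brackets. The cytosolic ribosomal proteins (0.55), the TOP translation genes (0.74) and the host genes (1.41) lie right of 0, and mitochondrial ribosomal proteins (-0.33) and proteasome subunits (-0.46) left of it.

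The machinery that makes ribosomes was not higher as a group. Beside the counts below, 46.8% of all genes were higher with GSK458. Of 29 genes of RNA polymerase I and ribosome assembly 7 were higher and 22 lower with GSK458 (median -0.20 without and -0.17 with As2O3), and 5 and 24 after rescaling to equal sums. The higher side held NOB1, the nuclease that matures the small subunit rRNA (1.06), POLR1D (0.95), UTP14A (0.95) and the nucleolar NPM1 (0.75), and the lower side BRIX1 (-0.55), NOP2 (-0.55) and WDR12 (-0.47). Of 7 genes listed as dedicated chaperones of ribosomal proteins 2 were higher, PDCD2 (0.47) and PDCD2L (0.41), and 5 lower (median -0.32). GRWD1, the chaperone of RPL3, was at 20.8, 13.2, 12.1 and 12.5 FPKM (control, As2O3, GSK458 and both drugs). TSR2, that of RPS26, was at 24.2, 23.8, 16.9 and 17.4 FPKM.

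Paralogs of the members were split in direction. Of 6 paralogs that averaged 5 FPKM or more, 2 were higher and 4 lower with GSK458 (median -0.24), where 46.8% of all genes were higher. RPL39L, the germ cell form of RPL39, was at 37.9 FPKM without drug, 46.5 with As2O3 alone, 21.1 with GSK458 alone and 31.6 with the combination, and its difference was -0.81 where RPL39 had 0.90. RPL26L1 had -0.56 where RPL26 had 0.84. RPL22L1 was at 56.2, 37.2, 45.0 and 25.7 FPKM and was lowest with both drugs. RPS27L, a p53 target, was at 35.9, 53, 59.2 and 56.8 FPKM and, like RPS27, was higher with GSK458 (0.71).

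Among 9 genes of the mTOR control of translation 2 were higher with GSK458 (median -0.32), where 46.8% of all genes were. MYC, a transcription factor that drives many ribosomal genes, was at 45.2 FPKM without drug, 96.2 with As2O3 alone, 88.4 with GSK458 alone and 57.0 with the combination, so both single drugs were above the control. EIF4EBP1, an inhibitor of cap-dependent initiation, was at 60.1, 137, 36.5 and 45.9 FPKM in that order, highest with As2O3 alone. LARP1, which binds TOP tracts, was at 42.0, 49.4, 39.7 and 46.4 FPKM. Its difference from the control was -0.078 with GSK458 alone and 0.23 with As2O3 alone. RPS6KB2 (-0.64) and RPTOR (-0.49) were lower with GSK458 and EIF4EBP2 (0.22) was higher. Of the genes around free RPL5 and RPL11, MDM2 was at 13.4, 19.8, 15.4 and 23.9 FPKM and the cell cycle inhibitor CDKN1A at 79.7, 244, 90.4 and 105 FPKM, highest with As2O3 alone.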

How the data were processed

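The data are RNA-seq libraries of 4 TOV21G cultures, 1 per group, grouped by the labels, which also give doses and times. Per the labels' protocols, a column kit gave the RNA and a stranded mRNA kit the libraries. The authors deposited FPKM values for 26255 gene symbols. Tools named in the submitters' processing notes are Cuffdiff 2.2.1, TopHat2 2.1.1, SAMtools 0.1.18 and Bowtie2 2.2.8, with hg19 as the build. Annotation, strand setting and the handling of reads with several matches are not given there. Depth is unknown, so no counting interval was computed. Its ratio between libraries came from the worth of 1 read against a control read, 1.038 for As2O3, 0.92 for GSK458 and 1.165 for the combination. This was the commonest ratio, at 3 decimals, among genes below 0.5 FPKM in the control (350 of 617, 354 of 615 and 362 of 614 genes). It gives depth only if no other scaling of the libraries entered the values, which was not tested.

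Genes averaging 5 FPKM or more were compared on log2 values after adding a pseudocount of 1 FPKM to the deposited FPKM, without tests. The members, gene lists and comparisons were chosen with earlier results of these data known. Named were the 5 highest and 5 lowest members by level, by GSK458 difference and by As2O3 difference (means of the 2 pairs that share no library), 15 fixed members, the role lists and, in other lists, up to 3 of the largest GSK458 differences each way. Coding sequences came from GENCODE 29, 1 transcript per gene chosen by APPRIS, support level and length, with values for 76 members and 8561 of 9079 other genes. Start windows came from RefSeq on GRCh38.p14, and a gene with several starts counted as having the TOP start if any start had it. Scripts (Python 3.11.15, pandas 2.3.3, numpy 2.4.6, scipy 1.17.1, matplotlib 3.10.9) were tested on simulated data. Alternatives were pseudocounts of 0.1 and 5 FPKM, no filter, 3 rescalings, a 1.5-fold threshold, Spearman's rho and leaving out the 10 most abundant other genes. Chosen after seeing the data were leaving out RPL21 and adding RPL21P28 and RPL13AP5 to their parent genes. Some genes and 1 sequence are not reported by name here, and the counts and medians include those genes.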

Additional observations from a re-analysis of the deposited data

Results flagged for a closer look

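The As2O3 difference of the ribosomal proteins had opposite signs without and with GSK458. Its median over the 76 members was 0.079 for As2O3 against the control and -0.22 for both drugs against GSK458. Of the members 61 were higher with As2O3 in the first pair and lower in the second, and 0 the other way round. The share of all genes that switched in this way was not counted. Taken pair by pair, 52.6% of all genes were higher in the first and 49.8% lower in the second. With 1 library per group the difference between the pairs was not tested. When libraries are rescaled to equal sums the first median is -0.0073, and only 35 members are higher in the first pair.

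The GSK458 difference changed sign with As2O3 present for 3 members, also untested. RPL3 had 0.18 without and -0.12 with As2O3, RPL8 had 0.25 and -0.054, and RPL35 had 0.15 and -0.000788. In the second pair RPL35 is positive under each of the 3 rescalings, RPL8 under median-of-ratios and upper-quartile scaling, and RPL3 under none of the 3.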

How the results depend on the processing

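Of 114 values recomputed under the alternatives, 97 kept their direction and stayed within 0.1 on the log2 scale, 1 percentage point of a share or 1.5 times a count, 16 moved further and 1 reversed. Rescaling to equal sums reversed the As2O3 median over members to -0.0073 and moved the GSK458 median from 0.55 to 0.43 and the departure from -0.27 to -0.13, and it left 3 in place of 25 members with a departure at least 20% below 0 and 0 in place of 3 members at least 20% lower with both drugs than with GSK458. At 1.5-fold the count of higher genes was 33 in place of 66 with GSK458, 9 in place of 41 with both drugs against the control and 2 in place of 28 with both drugs against As2O3. The 1 gene at least 25% higher with both drugs than with GSK458 was RPL21, and the count was 0 without it or with the pseudogenes added. Leaving out the 10 most abundant other genes gave shares of 24.3%, 24.4%, 32.6% and 29.6% in the control, As2O3, GSK458 and both drugs, and adding RPL21P28 and RPL13AP5 gave 31.2% with GSK458 and 27.9% with both drugs. The relation between the GSK458 pairs was 0.54 by Pearson's r, 0.75 by Spearman's rho, and by r 0.83 without RPL21 and 0.83 with the pseudogenes added. Apart from the stricter threshold and the genes left out or added, the cause was not tested. No paired analysis was possible because each group has 1 library and so no replicate numbers to pair, and no library could be left out for the same reason. Depth is known at most as a ratio between libraries, and pseudogene sums were made for RPL21 and RPL13A.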
